A study of Mus musculus with 3 samples.

Results

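A set of 2241 regions of open chromatin was described that all 3 depots of cultured mouse fat cells list, but that ranked higher in brown fat than in either white depot. Hypersensitive sites that overlapped or touched in the 3 deposited lists were merged into 99297 regions, of which 25009 were common to all depots and 24988 held exactly 1 site from each list. Within these, each list's normalized tag count was turned into a percentile from 0 to 1, with mean ranks for ties. A region was taken as stronger in brown fat when its percentile there was at least 0.2 above both white percentiles. The 2241 members are 8.97% of the 24988 regions (95% interval 8.62 to 9.33).

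The cells were stromal-vascular cells of brown fat (BAT, pooled from interscapular, cervical and axillary depots), epididymal white fat (eWAT) and inguinal white fat (iWAT) of male NMRI mice aged 4 to 5 weeks. All 3 groups were turned into fat cells in culture under the same conditions, with 10% newborn calf serum, 30 nM insulin and 1 µM rosiglitazone, an activator of the fat cell regulator PPARγ, and were taken on day 8. Only cultures with more than 50% differentiated cells were used, and nuclei were cut with 120 U/ml DNase I. Each group is 1 library, so there is no replicate error and no test between depots. The labels do not say whether a library pooled several animals or cultures, and undifferentiated cells that remained in the cultures are part of each library.

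DNase I cuts DNA where nucleosomes have been displaced, mostly at promoters, enhancers and other stretches bound by transcription factors. A site found in every depot thus marks a regulatory stretch that is accessible in all these fat cells, while the number of tags over it grows with how often, and in how many cells, it is open. Brown fat cells burn fuel to make heat through the mitochondrial uncoupling protein UCP1, whereas white fat cells store lipid, and both kinds depend on PPARγ and C/EBP factors. Brown fat of the upper back, epididymal fat inside the abdomen and inguinal fat under the skin arise from different precursors. Positions are in mm9 as the lists give them. Genes near the regions and the sequences under them were not analysed here, and the depots were not checked against marker genes.

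The lists held 48308 sites in BAT, 60974 in eWAT and 63214 in iWAT, and the median common region held 18 tags in BAT, 21 in eWAT and 20 in iWAT. A tag here is 1 step of the deposited normalized tag count, worth 0.857 in BAT, 0.595 in eWAT and 0.985 in iWAT. Because these scales differ between libraries, levels are given as tags, as percentiles, or as relative levels, meaning tags divided by the median of the common regions in the same library.

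The members were sites of middling to high rank in BAT and of low rank in the white depots. Their median percentile was 0.632 in BAT, with quartiles of 0.520 and 0.780, against 0.205 in eWAT (0.110 and 0.395) and 0.249 in iWAT (0.109 and 0.388). In tags, the median member held 21 in BAT, 15 in eWAT and 14 in iWAT. This is a relative level of 1.17 in BAT, against 0.714 in eWAT and 0.70 in iWAT. These are the values that chose the members and are given as a description. A higher tag count can come from more cells with the site open, from a site open more often per cell, or from counting error. These cannot be told apart here. The range in BAT ran from 13 to 65 tags. In the white depots it ran from 9 to 31 tags in eWAT and from 7 to 30 in iWAT. The highest white percentiles of any member were 0.778 in eWAT and 0.781 in iWAT, as a margin of 0.2 leaves no room above 0.8. In BAT, 133 members (5.93%) lay in the top 10% of the common regions and 501 (22.4%) lay under the middle rank.

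**Figure D1:**
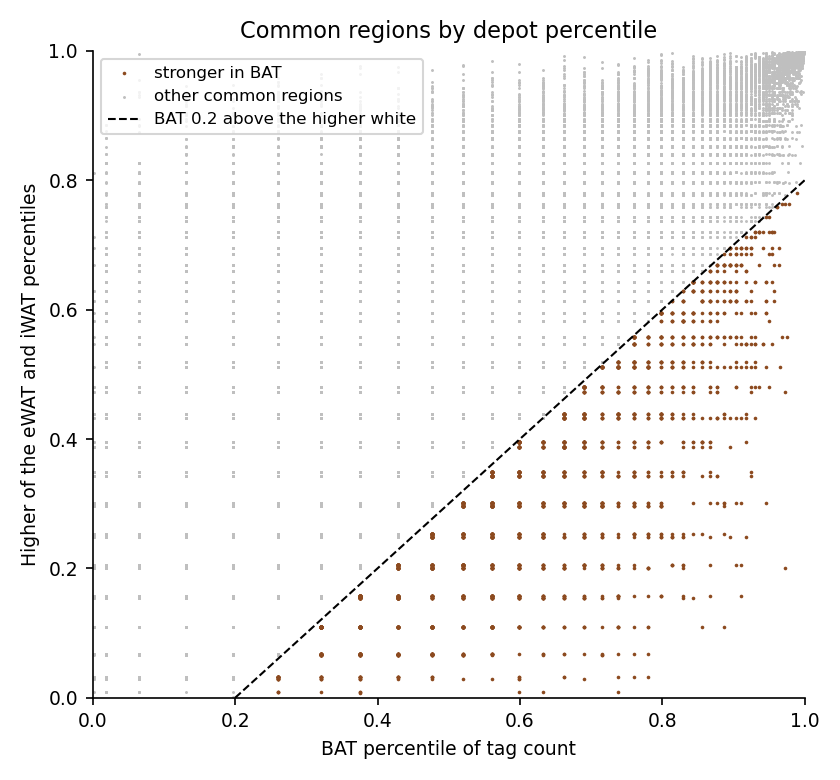
Each point is 1 or more of the 24988 common regions, placed by its BAT percentile of tag count (horizontal) and by the higher of its eWAT and iWAT percentiles (vertical); regions with the same tag counts fall on 1 point. The 2241 members lie on or under the dashed line, which marks a BAT percentile 0.2 above the higher white one.

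The margin, meaning the BAT percentile minus the higher of the white ones, had a median of 0.295 over the members and reached 0.776. It was under 0.25 in 692 members (30.9%), at least 0.3 in 1076 (48.0%) and at least 0.5 in 161 (7.18%). Values at the limit were close. The regions just inside it, taken in order of position among ties and so all 3 on chromosome 1, at 37934510 to 37934820, 135826442 to 135826819 and 136190697 to 136190948, each held 36 BAT tags and 26 iWAT tags, with 10, 15 and 22 eWAT tags. Those just outside, on chromosome 5 at 32712347 to 32712674, chromosome 6 at 136607046 to 136607295 and chromosome 7 at 137792712 to 137792971, each held 21 BAT tags and 18 iWAT tags, with 18, 14 and 19 eWAT tags. The margins were 0.200024 on the inside and 0.199984 on the outside.

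A percentile step of 0.2 was a matter of a few tags. A site of 21 BAT tags, the median of the members, stood at percentile 0.632 and was a member when eWAT held at most 19 tags and iWAT at most 17. The exact Poisson 95% interval of 21 tags runs from 13 to 32.1 tags, which spans BAT percentiles from 0.197 to 0.855. At 50 BAT tags the interval was 37.1 to 65.9 tags and spanned 0.904 to 0.989. For a single region of typical depth the counting error is therefore wider than the margin. These intervals cover counting error only.

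The same rule set with another depot on top picked out 1780 regions in eWAT (7.12%, 95% interval 6.81 to 7.45) and 1673 in iWAT (6.7%, 6.39 to 7.01). Between pairs of depots, the BAT percentile was at least 0.2 above that of eWAT in 17.9% of common regions and above that of iWAT in 17.5%. The opposite held in 17.4% for eWAT over BAT and 17.2% for iWAT over BAT. The larger number for BAT depended on how ranks were taken. With percentiles over the whole lists in place of the common regions, 999 regions had BAT on top, 1840 had eWAT and 1669 had iWAT, and BAT was then the smallest set.

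The exact Poisson intervals of the relative levels were also set side by side. They come from the same tags as the rule, so their separation follows in part from the choice of the members and is given as a description. The BAT interval lay above both white intervals in 72 members (3.21%, 95% interval 2.52 to 4.03), where 0.412% of all common regions did so. For the regions picked by the same rule, the equivalent held in 32 with eWAT on top (1.80%) and in 17 with iWAT on top (1.02%), beside 0.132% and 0.088% of all common regions with eWAT and iWAT in that place. The 72 members held a median of 40 tags in BAT (25 to 65), 17 in eWAT (10 to 31) and 17.5 in iWAT (8 to 30). Their median relative level was 2.22 in BAT, 0.810 in eWAT and 0.875 in iWAT.

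The 10 members with the largest margins were near the bottom of both white rankings. They held 25 to 53 tags in BAT, against 10 to 15 in eWAT and 8 to 13 in iWAT, and lay on 9 chromosomes. The first, on chromosome 15 at 67251590 to 67252088, held 35 tags in BAT, 13 in eWAT and 11 in iWAT. Its percentiles were 0.887 in BAT, 0.110 in eWAT and 0.109 in iWAT. It was also the widest of the 10, at 498 bp, because the centre of its iWAT site lay 276 bp from that of its BAT site. The BAT and iWAT sites of this region do not overlap, so their tags were counted over different stretches, while the centres of its BAT and eWAT sites lay 71 bp apart.

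The second, on chromosome 1 at 182139981 to 182140216, had the highest tag count of the 10, with site centres at most 14 bp apart. It held 53 tags in BAT (95% interval 39.7 to 69.3), 12 in eWAT (6.20 to 21) and 13 in iWAT (6.92 to 22.2). The relative level was 2.94 in BAT, 0.571 in eWAT and 0.650 in iWAT. Its tag density stood 35.1 times above the surroundings in BAT, against 13.7 times in eWAT and 16.4 times in iWAT.

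Chromosome 2 from 137115189 to 137115422 had 38 tags in BAT, 14 in eWAT and 11 in iWAT, with site centres at most 12 bp apart. Chromosome 10 from 84488937 to 84489162 was the best aligned of the 10, with centres at most 4 bp apart, and had 33 tags in BAT, 14 in eWAT and 12 in iWAT. The member of this group on chromosome X, at 83050214 to 83050508, held 38 tags in BAT, 15 in eWAT and 13 in iWAT.

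The remaining 5 of this group were weaker in BAT or less well aligned. Chromosome 2 from 73518566 to 73518924 held 32 tags in BAT, 12 in eWAT and 11 in iWAT. Its BAT and eWAT sites overlapped, with centres 137 bp apart. Chromosome 8 from 79932609 to 79932954 had 27 tags in BAT, 11 in eWAT and 8 in iWAT. Its BAT and iWAT sites also overlapped, with centres 121 bp apart. Chromosome 6 from 140177587 to 140177872 had 25 tags in BAT, 10 in eWAT and 8 in iWAT. At these depths a white site is close to the lowest tag count of any common region, which was 8 in eWAT and 6 in iWAT, so a lower white level could hardly have been listed. Chromosome 14 from 122980160 to 122980396 had 26 tags in BAT, 11 in eWAT and 8 in iWAT. Chromosome 11 from 68134686 to 68134922 had 27 tags in BAT, 12 in eWAT and 8 in iWAT, and was the one of the 10 whose BAT interval overlapped a white interval.

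Most of these 10 regions had no other listed region within 10 kb. None had another member within 10 kb, and 1 had a region listed in BAT only within 10 kb. Among all members the shares were 6.65% and 19.7%, so low counts among 10 regions do not set this group apart. The median distance to the nearest region of any kind was 14998.5 bp, a distance that was not computed over all members. The region on chromosome X had a BAT-only region 539 bp away.

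The 10 members with the highest BAT tag counts were a different group, with 1 region, that on chromosome 1 at 182139981, in both. They held 49 to 65 tags in BAT, 12 to 31 in eWAT and 13 to 30 in iWAT. The BAT interval lay above both white intervals in all 10, which the choice of high BAT counts among members favours. First among them, chromosome 10 from 61180373 to 61180670 had 65 tags in BAT, 31 in eWAT and 30 in iWAT. The white levels were themselves high there, at percentiles of 0.778 in eWAT and 0.781 in iWAT, against 0.989 in BAT, so the margin was 0.208. A region close to it in rank, on chromosome 2 at 153435047 to 153435335, held 56 tags in BAT, 26 in eWAT and 29 in iWAT.

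The white depots were listed at unequal levels in several of these strong members, though their counting intervals overlapped. On chromosome 4 at 81545861 to 81546092, 54 tags were listed in BAT, 23 in eWAT and 16 in iWAT. On chromosome 9 at 34801337 to 34801588, 51 tags were listed in BAT, 23 in eWAT and 13 in iWAT. In both, iWAT was the lowest depot. The order of the white depots was the other way on chromosome 19 at 46852696 to 46852969, with 50 tags in BAT, 14 in eWAT and 20 in iWAT. It was also so on chromosome 6 at 113430774 to 113431036, with 53 tags in BAT, 20 in eWAT and 29 in iWAT, and on chromosome 1 at 59007980 to 59008283, with 49 tags in BAT, 18 in eWAT and 26 in iWAT. Of the remaining 2, the region on chromosome 14 at 31634241 to 31634523 held 53 tags in BAT and 19 in each white depot, and that on chromosome 14 at 68034098 to 68034411 held 51 in BAT, 27 in eWAT and 29 in iWAT. That at 68034098 was the one of the 10 in which the fold over the surroundings was not highest in BAT, with 11.2 in BAT, 9.02 in eWAT and 14 in iWAT.

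**Figure D2:**
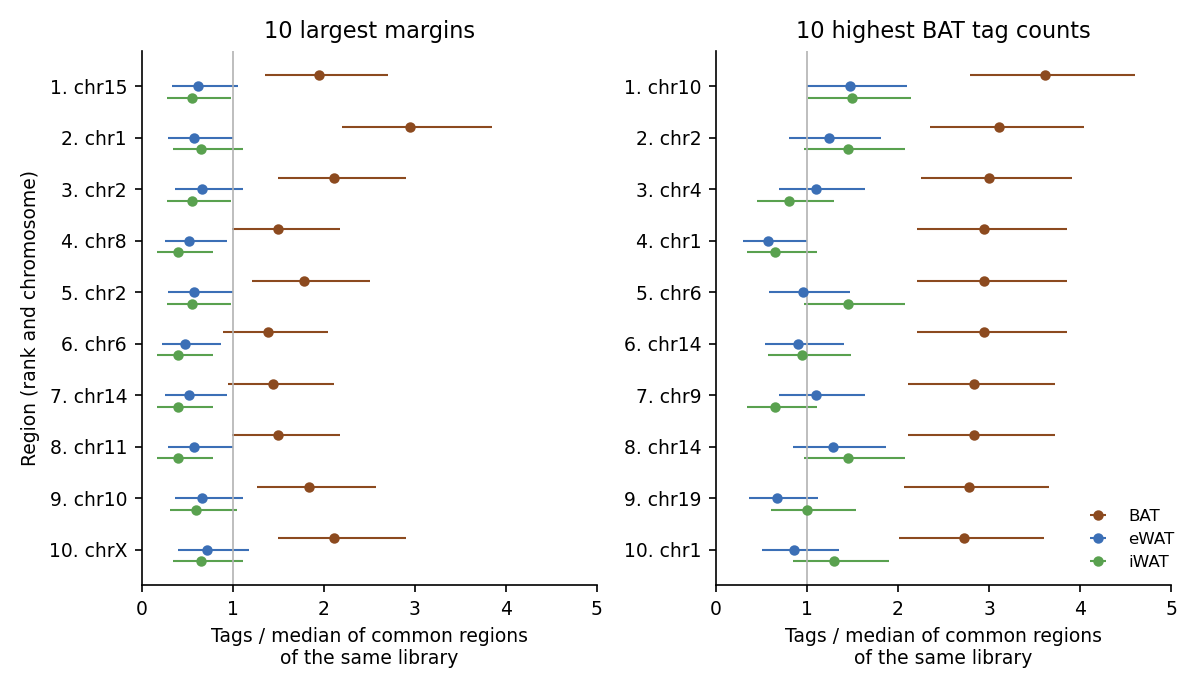
Relative level (tags divided by the median of the common regions in the same library) of the 10 members with the largest margins (left) and of the 10 with the highest BAT tag counts (right), in BAT, eWAT and iWAT; bars are exact Poisson 95% intervals and cover counting error only. On the left the white depots lie at 0.4 to 0.714 and BAT at 1.39 to 2.94; on the right the white depots lie at 0.571 to 1.5 and BAT at 2.72 to 3.61.

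Over all members the white depots were similarly low. The eWAT percentile was above that of iWAT in 1209 members (53.9%, 95% interval 51.9 to 56.0) and below it in 1032. Among all common regions the share was 52.0%. The white percentiles lay within 0.1 of each other in 58.9% of the members (56.8 to 60.9), against 45.0% of all common regions. Being low in both white depots is part of the rule, which narrows the room for a difference. An iWAT percentile at least 0.2 above that of eWAT was seen in 221 members (9.86%), against 15.3% of all common regions, and the opposite in 133 (5.93%), against 15.1%. Which white depot was the higher depended on the measure: ranked by the authors' peak score, eWAT was above iWAT in 46.7% of the regions that met the rule.

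Other columns of the lists were compared with those over all common regions. They come from the same tags as the rule and are given as a description. The fold of tag density over the surroundings had a median of 12.8 in BAT over the members, against 7.11 in eWAT and 9.48 in iWAT. Over all common regions it was 10.5 in BAT, 8.58 in eWAT and 11.7 in iWAT. When this fold was ranked within each list, BAT stood above both white depots in 1899 members (84.7%, 95% interval 83.2 to 86.2), against 28.9% of the common regions that were not members. Used in place of the tag count in the rule itself, the fold picked out 2006 regions, of which 925 were among the 2241 members (41.3% of the members and 46.1% of the 2006), so the set depends on how a site's strength is measured.

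The focus ratio, the fraction of tags close to the site centre, had a median of 0.733 in BAT over the members, against 0.677 in eWAT and 0.683 in iWAT. Over all common regions it was 0.706 in BAT, 0.688 in eWAT and 0.705 in iWAT. BAT sites of the members were thus somewhat sharper than the average common site and the white sites somewhat broader, though all quartile ranges overlapped. The regions picked with another depot on top had the same feature, with a focus ratio in that depot of 0.717 for eWAT and 0.733 for iWAT. The clonal fold, a measure of repeated tag positions, was 0.87 to 0.97 in BAT over the members, where the lowest value of any common region in BAT was 0.28. Ranked within each list, it was highest in BAT in 0 of the 2241 members, against 36.9% of the common regions that were not members. Its median percentile over the members was 0.448 in BAT, 0.818 in eWAT and 0.729 in iWAT. Over all common regions it was 0.448 in BAT, 0.611 in eWAT and 0.535 in iWAT, so the medians differed in the white depots and not in BAT. Among the named regions the clonal fold was lower where the tag count was higher. In BAT it was 0.95 at 25 tags and 0.87 at 65 tags. A clonal rank that is lower in BAT than in the white depots thus follows from the choice of the members and is given as a description.

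Site centres of the members lay somewhat closer between BAT and each white depot than between the white depots. The median distance between centres was 45 bp for BAT and eWAT, 48 bp for BAT and iWAT, and 54 bp for eWAT and iWAT. Over all common regions it was 43, 44 and 41 bp. The pair of depots in which a set was weak had the largest distance in the other sets too, with 58 bp for BAT and iWAT in the set with eWAT on top and 55 bp for BAT and eWAT in that with iWAT on top. Members were 305 bp wide at the median, against 294 bp for all common regions. Of the members 17.2% were wider than 400 bp, against 14.6% of all common regions.

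Members were spread over all 21 chromosomes. Their share of the common regions ran from 7.02% on chromosome 7 (95% interval 5.74 to 8.48) to 10.8% on chromosome X (8.17 to 14), beside 8.97% overall. Chromosome 7 was the one chromosome whose interval did not include the overall share. Chromosome 2 held the most members, 199 of its 2011 common regions, and chromosome Y held 3 of 37.

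**Figure D3:**
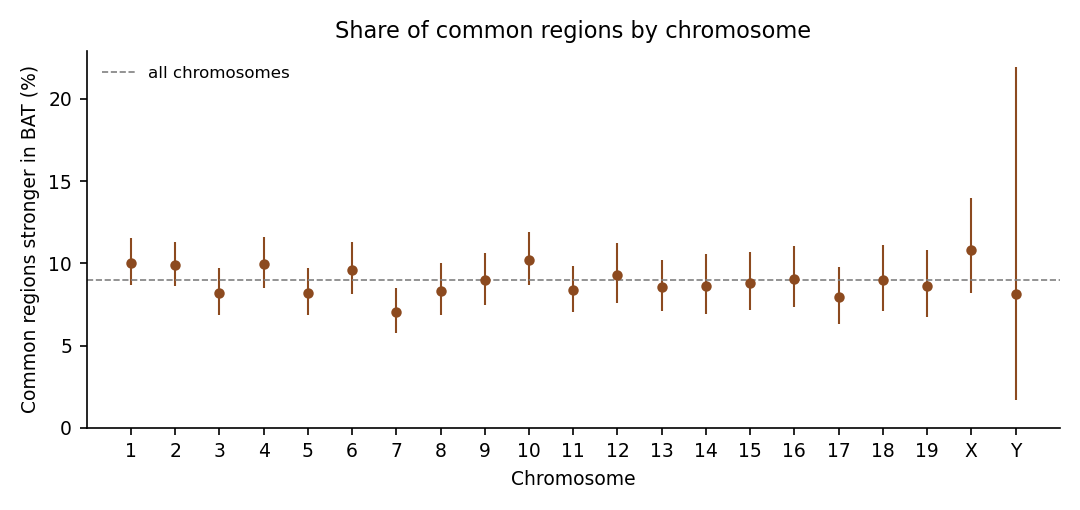
Percentage of the common regions of each chromosome that were stronger in BAT; points are shares and bars exact (Clopper-Pearson) 95% intervals, and the dashed line is the share over all chromosomes, 8.97%. The shares lie between 7.02% on chromosome 7 and 10.8% on chromosome X, and the interval of chromosome Y, with 37 common regions, is the widest.

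The tags of regions around a member enter its choice only through the ranking, and these regions were examined next. Close to a member, other common regions were also shifted towards BAT. Within 1 kb of a member lay 111 other common regions. Their BAT percentile exceeded the mean of their white percentiles by 0.160 on average, and 86 of them (77.5%, 95% interval 68.6 to 84.9) had it above that mean. Of these 111 regions, 32 were members themselves (28.8%, 20.6 to 38.2), against 8.97% of all common regions, while 1 was in the set with eWAT on top and 2 were in that with iWAT on top. Regions in this comparison do not share bases, but the libraries are the same ones the rule used, and neighbouring regions are not independent. A pair of neighbouring members counts once from each side, so the intervals are narrower than independent regions would give. With percentiles over the whole lists the share of members within 1 kb was 5.41% (0.661 to 18.2), against 3.998% of all common regions, and a shift was not detectable there at this number of neighbours. From 1 to 10 kb it was 8.59% with those percentiles.

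The shift became smaller with distance. From 1 to 5 kb the mean difference was 0.0944 over 268 pairs of a member and a neighbour, with 16.4% of the neighbours being members (12.2 to 21.4). From 5 to 10 kb it was 0.0645 over 552 pairs, with 14.9% (12.0 to 18.1). From 10 to 50 kb it was 0.0290, with 10.5% (9.53 to 11.6), and from 50 to 100 kb it was 0.0169, with 10.3% (9.36 to 11.3). Between 100 and 500 kb the difference was 0.00205 and the share 8.52%, close to that of all common regions. Neighbours within 1 kb of any common region had a mean difference of 0.0107.

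Regions picked with a white depot on top also had neighbours of their own set nearby. Within 1 kb, 14.7% of the common neighbours of eWAT-stronger regions were in the same set (95% interval 7.28 to 25.4, 68 neighbours), and from 1 to 5 kb 17.5% were (12.5 to 23.6), against 7.12% overall. Among neighbours of iWAT-stronger regions, 18.8% were in the same set within 1 kb (10.1 to 30.5, 64 neighbours) and 7.95% from 1 to 5 kb (4.42 to 13), against 6.7% of all common regions, and the second interval includes that share. The mean difference between BAT and the white depots near eWAT-stronger regions was −0.0810 within 1 kb and −0.0619 from 1 to 5 kb. Near iWAT-stronger regions it was −0.0323 and −0.0146. The intervals of the BAT and eWAT sets overlap in both distance ranges, and a difference in clustering between the sets was not tested.

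**Figure D4:**
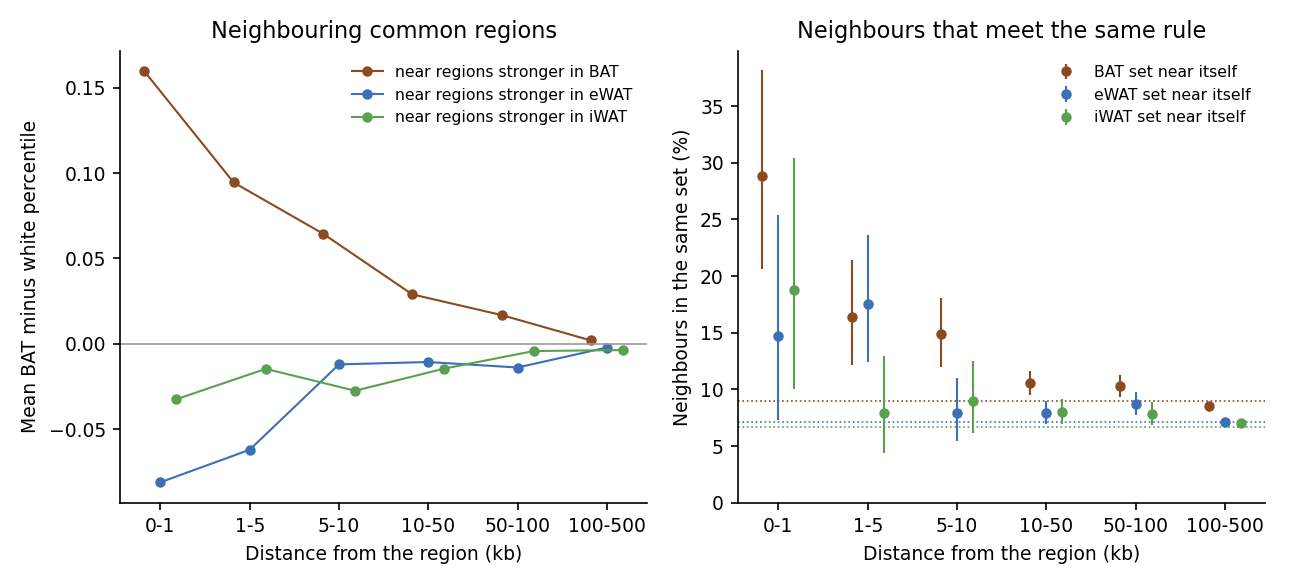
Common regions at 0 to 1, 1 to 5, 5 to 10, 10 to 50, 50 to 100 and 100 to 500 kb from regions stronger in BAT, eWAT or iWAT. Left, mean BAT percentile minus the mean white percentile of these neighbours, which is 0.160 within 1 kb of BAT-stronger regions and 0.00205 at 100 to 500 kb; right, percentage of neighbours in the same set, with exact 95% intervals and the share of each set among all common regions as a dotted line.

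The means above include neighbours that were members, which are high in BAT by the rule. A shift was also seen among neighbours that were not members, given here as a median within 10 kb. Its size cannot be set against those means, and it was not split by distance. Among common regions that were not members, 749 lay within 10 kb of a member, and their median difference was 0.0247, with quartiles of −0.0632 and 0.122. Non-members within 10 kb of other non-members had a median of −0.0128, with quartiles of −0.126 and 0.0757. The BAT percentile was above the mean white percentile in 57.8% of the non-members near a member (95% interval 54.2 to 61.4), against 45.3% (44.1 to 46.4) near a non-member. Near eWAT-stronger and iWAT-stronger regions the share was 38.1% and 43.3%. These quartiles overlap widely, so the shift is one of the average and not of each neighbour. With percentiles over the whole lists both medians were below 0, at −0.00818 near members and −0.0388 near non-members.

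The mean shift of the neighbours was larger only for members at the top of the range of margins. For margins of 0.2 to 0.25, 0.25 to 0.3 and 0.3 to 0.4 the mean difference of the common neighbours within 10 kb was 0.0785, 0.0746 and 0.0708. For the 473 members with margins of 0.4 or more it was 0.125 over 177 pairs, and 27.1% of these neighbours were members (95% interval 20.7 to 34.3), against 14.9% (11.0 to 19.4) for margins of 0.2 to 0.25. Such neighbours are high in BAT by the rule and enter the means. The BAT percentile was above the mean white one in 70.1% of the neighbours (62.7 to 76.7), against 66.6% (60.9 to 71.9) for margins of 0.2 to 0.25. These last intervals overlap. Around the 72 members with separate Poisson intervals there were 38 common neighbours, with a mean difference of 0.142.

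Regions listed in fewer depots gave a smaller contrast. A region listed in BAT only lay within 10 kb of 442 members (19.7%, 95% interval 18.1 to 21.4), against 17.8% of the other common regions (17.3 to 18.3), 14.9% of the eWAT-stronger regions (13.3 to 16.6) and 16.0% of the iWAT-stronger regions (14.2 to 17.8). An eWAT-only region lay near 23.2% of the members and 23.9% of the other common regions, and an iWAT-only region near 25.3% and 26.4%. Of the 1695 single-list regions near members, 28.1% were listed in BAT (26.0 to 30.3), against 25.0% of those near other common regions (24.3 to 25.7) and 22.2% of all single-list regions. Near eWAT-stronger and iWAT-stronger regions the share was 23.5% and 22.9%. Of the 779 regions in exactly 2 lists near members, 57.6% had BAT as one of the 2 (54.1 to 61.1), against 54.9% near other common regions (53.7 to 56.1).

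Long runs of members were rare. Another common region of any kind lay within 10 kb of 34.2% of the members and 33.9% of the other common regions, which limits such runs. At most 10 kb apart, members formed 67 pairs and 5 groups of 3, while 2092 stood alone, and 6.65% of the members had another within 10 kb. In windows of 100 kb, 1 window held 4 members, 27 held 3 and 163 held 2. These counts were not set beside those of the eWAT-stronger and iWAT-stronger regions, so they do not set the members apart. The windows named here were picked for their number of members, so a high number follows from the choice.

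The window with 4 members ran from 61600001 to 61700000 on chromosome 18 and held 8 common regions. The members there, in order of position, held 32, 47, 41 and 23 tags in BAT, 19, 14, 22 and 19 in eWAT, and 16, 25, 19 and 18 in iWAT. The strongest, at 61607279 to 61607600, and that at 61670039 to 61670271 had BAT intervals clear of the white depots. All 4 other common regions of the window also had a BAT percentile above their mean white percentile, by 0.0161 to 0.224. The window listed 2 regions in BAT only, 4 in eWAT only and 3 in iWAT only. It was thus shifted towards BAT in the tag counts of its common regions and not in the number of regions listed for a single depot.

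On chromosome 12, the window from 33400001 to 33500000 held 3 members among 4 common regions, all within 11409 bp. In order of position they held 24, 34 and 47 tags in BAT, 12, 23 and 25 in eWAT, and 10, 18 and 20 in iWAT. On chromosome 1, the window from 135800001 to 135900000 held 3 members within 12006 bp, with 24, 36 and 39 tags in BAT, 11, 15 and 19 in eWAT, and 13, 26 and 17 in iWAT. It listed 4 BAT-only, 1 eWAT-only and 4 iWAT-only regions, and of its 6 other common regions 3 leaned towards BAT and 3 did not. Neighbours of members thus went either way within a single window.

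The window from 59000001 to 59100000 on chromosome 1 held 3 of its 4 common regions as members, spaced over 31834 bp. They held 49, 24 and 28 tags in BAT, 18, 17 and 20 in eWAT, and 26, 14 and 17 in iWAT. On chromosome 3, the window from 60200001 to 60300000 held 3 members among 7 common regions, spaced over 82347 bp, with 41, 31 and 30 tags in BAT, 28, 17 and 19 in eWAT, and 25, 12 and 20 in iWAT. Of the other 4 common regions there, 2 leaned towards BAT and 2 did not, with differences from −0.192 to 0.103.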

How the data were processed

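DNase-seq was read from 1 deposited list of sites per depot, with column names of HOMER's findPeaks per the file headers. STAR, HOMER and the mm9 build are listed in the submitters' processing notes; versions and settings are not given in the sources used here. Per the file headers, each list holds a normalized tag count, treated as a signal, a focus ratio (fraction), a peak score, a fold (ratio) and a p-value against the surroundings, and a clonal fold. The lowest deposited fold was 4 and the highest deposited p-value 9.98e-05. The deposited tag counts were whole multiples of 1 step in 100% (BAT), 99.998% (eWAT) and 100% (iWAT) of sites, within 0.005 below 10 and 0.05 above.

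Sites were merged, ranked and counted with pandas 2.3.3 and numpy 2.4.6 under Python 3.11.15; intervals came from scipy 1.17.1 and figures from matplotlib 3.10.9. Shares carry Clopper-Pearson intervals and tags exact Poisson intervals. Distances run between region edges, and pairs were counted once for each member. The code recovered 300 of 300 members planted in simulated lists of 6000 regions. These were planted well above the limit and without counting error, so the recovery checks the code and not the rule at low tag counts. Members and measures were chosen with earlier results of these data known. Regions named are the 10 members with the largest margins, the 10 with the highest BAT tag counts, 3 on each side of the limit, and the 5 windows of 100 kb with the most members; where 2 rules named the same region it counts under both. Ties were ordered by BAT tags, then position, and windows by summed BAT tags. An mm9 genome and gene annotation were not used here.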

Additional observations from a re-analysis of the deposited data

How the results depend on the processing

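No paired analysis was possible because each depot has 1 library and the labels carry no replicate numbers. The alternatives were a margin of 0.1 or 0.3, percentiles over the whole lists, ranks by the authors' peak score or by fold over the surroundings, merging of sites within 200 bp, lists of equal length (48308 sites), regions with at least 20 BAT tags, autosomes without their first 5 Mb, and neighbourhoods of 5 or 50 kb. Counts under the eWAT and iWAT rules and shares of neighbours that are members were recomputed after the data had been seen.

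Margins of 0.1 and 0.3 gave 4348 and 1076 members, whole-list percentiles 999 and at least 20 BAT tags 1393; the stricter margin and the tag minimum leave fewer regions by construction. With margins of 0.1 and 0.3, 3802 and 730 regions had eWAT on top and 3618 and 703 had iWAT on top, and with at least 20 BAT tags 80 had eWAT and 78 iWAT on top. The tag minimum was set on BAT alone. It removes mainly regions with a white depot on top, whose median BAT tags were 12 (eWAT on top) and 13 (iWAT on top). Its counts thus do not compare the depots, and it also tilts the neighbour values given below, and those beside them, towards BAT. Ranked by peak score, 2249 regions were members, of which 1966 were shared with the 2241; ranked by fold, 2006 were, of which 925 were shared, so 41.3% of the members met the rule by fold. The median margin was 0.203 and 0.385 at margins of 0.1 and 0.3, and 0.304 with at least 20 BAT tags.

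Members with another member nearby were 3.003% with whole-list percentiles, 10.6% and 3.44% at margins of 0.1 and 0.3, 8.14% with sites within 200 bp merged, and 3.35% and 19.7% within 5 and 50 kb. A BAT-only region lay near 14.5% of members with sites within 200 bp merged, 23.9% with equal lists, and 11.1% and 56.2% within 5 and 50 kb. The BAT-only share of single-list regions near members was 31.3% with whole-list percentiles, 30.9% at a margin of 0.3 and 36.0% with equal lists. For none of the values in this paragraph was the share near other common regions recomputed. Equal lists shorten the eWAT and iWAT lists, which by itself changes how many regions are BAT-only. These values therefore do not show a stronger or weaker contrast than the main setting.

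The median difference of non-members near members was −0.00818 with whole-list percentiles and −0.00399 at a margin of 0.1, turning its sign; near non-members it was −0.0388 and −0.0301 there, so it was still the higher of the pair. It was 0.0463 at a margin of 0.3 (−0.00411 near non-members), 0.0648 with at least 20 BAT tags (0.0250), 0.0467 within 5 kb (−0.0128) and 0.00410 within 50 kb (−0.0143). The share of members with eWAT above iWAT was 46.7% by peak score, 48.1% by fold, 50.8% with equal lists and 51.0% with at least 20 BAT tags.

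Of common neighbours within 1 kb, members were 19.8% by peak score (9.0% of all common regions), 5.41% with whole-list percentiles (3.998%), 14.6% at a margin of 0.3 (4.31%) and 51.1% with at least 20 BAT tags (13.3%). From 1 to 10 kb the share was 15.4%, and 8.59% with whole-list percentiles, 25.3% and 8.53% at margins of 0.1 and 0.3 (17.4% and 4.31% of all common regions), 18.2% with equal lists (8.99%) and 22.4% with at least 20 BAT tags. The causes of these shifts were not tested. Depth limits all of these values, since the median member rests on 21 BAT tags.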
